A study of Rattus norvegicus with 4 samples.

Results

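The 37 genes described here carry out mitosis: they code for proteins of the spindle, the kinetochore, the chromosome scaffold and the signalling that drives division, and were listed by symbol. A listed gene counted as measured where the accession of a non-control array probe mapped to its symbol. Of the 37 genes, 30 had such a probe, and 28 of these 30 gave signal well above the background of every array. The whole table held 16579 genes with a probe. No level is given for Top2a, Cenpe, Spc24, Anln, Ncapg, Ncapd2 and Ncaph, the 7 genes without one.

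The cells were NR8383, an alveolar macrophage line first grown from cells washed out of a normal rat's lung, with no genetic change named in the labels. All 4 cultures, numbered replicates 1 to 4, shared one exposure of 4 h to the titanium dioxide material NRCWE001 (TiO2) at 3 cm2/cm2. They came from passage 20, were seeded for 48 h in flasks of 25 cm2, and gave RNA with an integrity number above 7.5, of which 100 ng was labelled for a one-colour array. The series' design text counts the 4 cultures as biological replicates and lists a control without particles, not analysed here. No value below therefore says what the particles did to a transcript, and the labels do not say what share of the cells was dividing. What could be compared was the signal of a probe with background, and one exposed culture with another. Each culture had an array of its own, so a difference between cultures and one between arrays cannot be told apart, and every p-value measures only the spread between these 4 samples.

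Over the whole arrays, 15314 to 16711 of 45598 probes were detected per array, no spot was saturated, and local backgrounds had medians of 36 to 41 intensity units. Replicate 3 was the brightest array, with a 75th percentile of 554 units against 347 to 433 on the others, and had the most detected genes, 8340 against 7851 to 8087. After scaling, all tested genes had a median log2 deviation from their own means of -0.08 on replicate 3 and of 0.00 to 0.05 on the other arrays. On all 4 arrays, macrophage markers were detected in 9 of 12 cases, the exceptions being Marco, Adgre1 and Cd163, where 45.7% of all genes were. Of lung epithelium 1 of 10 markers was detected (Foxj1), and of lymphoid cells 2 of 8 (Nkg7 and Lck). Of granulocytes and mast cells 2 of 9 were (Camp and S100a8), and of fibroblasts and endothelium 3 of 10 (Pecam1, Cdh5 and Vwf). No spot had the same value on any pair of arrays.

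In mitosis the duplicated chromosomes are compacted by condensin, captured by spindle microtubules at their kinetochores, lined up, and pulled apart once the spindle checkpoint is satisfied. The checkpoint holds back the anaphase-promoting complex until every kinetochore is attached, and the complex then brings on the destruction of securin and of the mitotic cyclins. Most genes of this machinery are transcribed late in the cell cycle, and summed expression of such genes is widely read as a sign of proliferation. Macrophage lines divide in culture, unlike most macrophages of the healthy lung, which divide rarely.

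Late cell cycle genes are known for 2 short promoter elements: the CCAAT box, bound by the factor NF-Y, and the cell cycle genes homology region (CHR), bound by the LIN54 subunit of the DREAM and MuvB complexes. Promoters were matched to 33 of the 37 genes in a RefSeq table of assembly GRCr8, each from 250 bases before to 50 after the transcript start. Of the members Aurkb, Tpx2, Incenp and Racgap1 no promoter was matched. Both strands were searched for CCAAT and for the CHR words TTTGAA and TTCGAA. The promoters below are those of the first 4 listed genes that hold both words, shown to let the spacing of the elements be read. Each runs 5′ to 3′ on the strand of its gene, from 250 bases before the start to 20 after it. Capitals mark the matches, with ATTGG and TTCAAA being the words on the opposite strand. The windows are chr1:199952574-199952843, minus strand (Mki67), chr10:84473074-84473343, minus strand (Top2a), chr1:186147408-186147677, plus strand (Plk1), and chr13:103760867-103761136, minus strand (Cenpf).
Mki67: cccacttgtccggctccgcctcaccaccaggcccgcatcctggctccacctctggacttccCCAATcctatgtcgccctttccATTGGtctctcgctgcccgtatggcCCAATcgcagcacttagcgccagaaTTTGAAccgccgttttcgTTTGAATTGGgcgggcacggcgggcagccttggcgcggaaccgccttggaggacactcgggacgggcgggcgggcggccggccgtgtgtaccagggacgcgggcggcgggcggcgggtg
Top2a: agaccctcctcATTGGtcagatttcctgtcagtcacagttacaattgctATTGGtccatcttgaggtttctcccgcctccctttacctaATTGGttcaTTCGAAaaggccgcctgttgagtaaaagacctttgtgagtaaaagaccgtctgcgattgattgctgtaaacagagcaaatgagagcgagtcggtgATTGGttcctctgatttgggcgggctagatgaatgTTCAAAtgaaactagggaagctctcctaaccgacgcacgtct
Plk1: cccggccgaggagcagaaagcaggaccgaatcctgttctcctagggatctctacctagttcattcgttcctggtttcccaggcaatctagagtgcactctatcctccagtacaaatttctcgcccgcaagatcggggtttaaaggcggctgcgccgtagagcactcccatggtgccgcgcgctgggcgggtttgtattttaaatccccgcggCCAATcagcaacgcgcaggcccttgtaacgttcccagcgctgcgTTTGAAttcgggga
Cenpf: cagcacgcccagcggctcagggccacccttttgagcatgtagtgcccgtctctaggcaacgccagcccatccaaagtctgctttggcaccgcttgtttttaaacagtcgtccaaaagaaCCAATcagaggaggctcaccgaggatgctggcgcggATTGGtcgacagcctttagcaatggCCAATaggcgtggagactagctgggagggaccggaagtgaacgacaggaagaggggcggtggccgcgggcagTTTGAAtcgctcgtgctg

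The Mki67 promoter held 4 CCAAT words and 2 CHR words, of which the CHR nearer the start shared 1 base with a CCAAT on the opposite strand. In Top2a, the gene of the topoisomerase that untangles sister chromatids, 4 CCAAT words came with a CHR word at -22 to -17 and another at -152 to -147, counted from the start. The Plk1 promoter had a single CCAAT, at -38 to -34, and a CHR at 7 to 12. In Cenpf, 3 CCAAT words preceded a CHR at 3 to 8.

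The pair of elements was common among the members. Of 33 promoters 24 held a CHR word (72.7%), against 19.5% of all 27457 promoters of the same length and 13.4% of the 6378 that belonged to genes detected on every array. A CCAAT was found in 24 of 33 (72.7%), against 37.7% of all promoters and 39.7% of those of detected genes. Both stood in 19 of 33 (57.6%), against 7.83% and 5.99%, and 2 or more CCAAT in 16 of 33 (48.5%), against 11.5% of all promoters. In Mki67 and Cdca8 a CHR shared a base with a CCAAT. Of the CHR words, 27 of 30 fell between 120 bases before the start and 50 after it, a span that is most of the window searched. The same count was not made over all promoters, so no nearness to the start particular to the members is shown. No member held one of the E2F words TTTCCCGC, TTTCGCGC, TTTGCCGC or TTTGGCGC, which 2.25% of all promoters and 4.58% of those of detected genes held. With words this rare, their absence from 33 promoters does not set the members apart. Neither a CCAAT nor a CHR was in the windows of Aurka, Bub1, Kif2c and Ncaph. These are letter matches and show neither binding nor its absence.

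**Figure D1:**
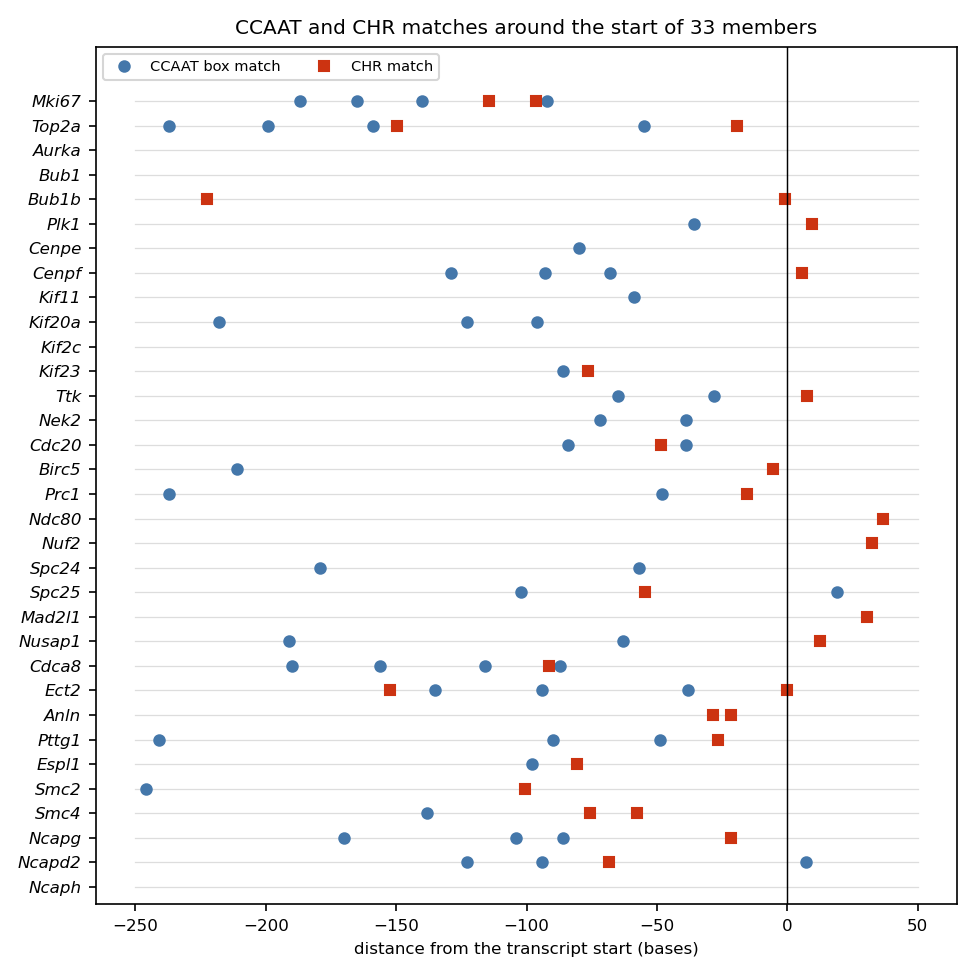
Position of each CCAAT (blue circles) and CHR word (red squares) in the promoters of 33 members, in bases from the transcript start (line at 0), on either strand; each row is 1 gene and the grey line is the window searched. Of the CHR words, 27 of 30 lie between 120 bases before and 50 after the start, a span that is most of the window.

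Levels below are log2 of the processed signal minus log2 of the 75th percentile of the same array, so that 0 is the signal which 75% of the spots stay under. A level describes one probe, the brightest of its gene, and levels of different genes are not ranked against each other, as probes differ in how strongly they bind. A probe was called detected where over 0.5 of its spots carried the flag for signal well above background. By this measure 28 of 30 measured members (93.3%) were detected on each of the 4 arrays, while 45.7% of all genes were. Cenpf, a large kinetochore protein, and Smc4, a core subunit of condensin, did not rise well above background on any of the arrays. Their probes read -5.43 ± 0.21 and -5.99 ± 0.49 (SD, n = 4), and with a more lenient flag, signal significantly above background, 30 of 30 members passed.

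**Figure D2:**
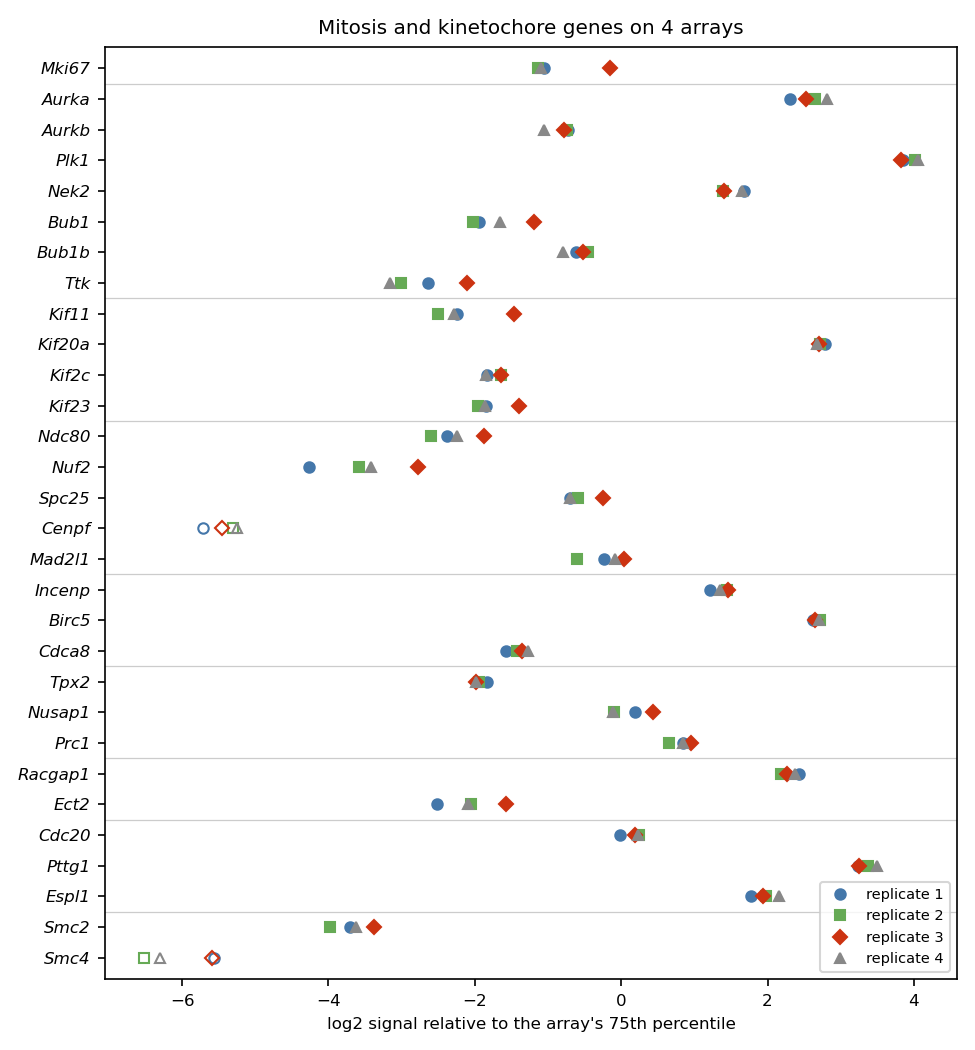
Level of the 30 measured members on each array, as log2 signal relative to the array's 75th percentile; each symbol is 1 array, grouped by role between grey lines, filled where the probe was detected and open where it was not (Cenpf and Smc4). Replicate 3 (red diamonds) lies to the right of the other arrays in 15 of the 28 detected members, among them Mki67, Ttk, Kif11 and Nuf2, and within or left of them in the rest, such as Plk1 and Kif20a.

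Mki67, which codes for the Ki-67 coat protein of mitotic chromosomes and is the usual marker of dividing cells, was detected by 2 of its 4 probes on every array. It lay at -1.05, -1.14, -0.15 and -1.10 on replicates 1 to 4, that is at -0.86 ± 0.47 (SD, n = 4). Replicate 3 stood 1.92-fold above the other arrays, whose values lay close together (folds set replicate 3 against the mean log2 level of the other three). As processed signal, before any scaling between arrays, the values were 210, 158, 499 and 193 intensity units. This probe is printed on 10 spots, and the lowest of them on replicate 3 (-0.29) was above the highest on any other array (-0.89), so its spots did not overlap those of the others. The second detected probe, printed on 2 spots, gave -2.04, -2.19, -1.05 and -2.32, again with replicate 3 on top, by 2.19-fold. The other two probes were each detected on 2 arrays alone, so no fold is given for them.

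The mitotic kinases showed no common order of the arrays. Aurka, the centrosomal kinase of spindle assembly, lay at 2.31, 2.65, 2.52 and 2.81 (2.57 ± 0.21), lowest on replicate 1. Aurkb, the kinase of the chromosomal passenger complex, lay at -0.72, -0.74, -0.78 and -1.05 (-0.82 ± 0.16), lowest on replicate 4. Plk1, which drives mitotic entry and many later steps, lay at 3.85, 4.01, 3.83 and 4.06 (3.94 ± 0.12). None of these 3 kinases had its highest value on replicate 3. Nek2, a kinase of centrosome separation, lay at 1.53 ± 0.15, and Bub1b, the checkpoint protein BubR1, at -0.60 ± 0.15.

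The remaining kinases of the spindle checkpoint were highest on replicate 3. Ttk, the kinase Mps1 that starts checkpoint signalling, lay at -2.64, -3.01, -2.11 and -3.16 (-2.73 ± 0.46). That put replicate 3 above the others by 1.77-fold. Bub1, which Ttk recruits to unattached kinetochores, lay at -1.94, -2.02, -1.19 and -1.65 (-1.70 ± 0.37), a 1.60-fold excess of replicate 3 over the rest. Replicate 4 came next in Bub1 and was the lowest array in Ttk, so the rest of the order differed.

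Of the 4 measured mitotic motors, 3 were highest on replicate 3: Kif11, Kif23 and, by a margin below the rounding of its levels, Kif2c. Kif11, the kinesin Eg5 that pushes spindle poles apart, lay at -2.24, -2.50, -1.47 and -2.29 (-2.12 ± 0.45), with replicate 3 in front by 1.83-fold. Kif23, a central spindle kinesin, lay at -1.85, -1.96, -1.39 and -1.86 (-1.76 ± 0.26). Kif20a, a kinesin of cytokinesis, lay at 2.79, 2.72, 2.71 and 2.67 (2.72 ± 0.05). From highest to lowest array, Kif20a differed by 1.08-fold and Kif11 by 2.04-fold. Kif2c, which takes apart microtubules that are wrongly attached, lay at -1.83, -1.64, -1.64 and -1.85 (-1.74 ± 0.11), with replicates 2 and 3 level.

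All 4 detected members of the kinetochore and checkpoint group were highest on replicate 3. Ndc80 and Nuf2 form one end of the NDC80 complex, which grips the microtubule, and Spc25 the other, which holds on to the kinetochore. Ndc80 lay at -2.38, -2.60, -1.88 and -2.25 (-2.28 ± 0.30). Nuf2 lay at -4.27, -3.58, -2.77 and -3.42 (-3.51 ± 0.62), the largest SD of the members. The deviations of Nuf2 were 0.74 on replicate 3 and -0.76 on replicate 1, so this spread came from both ends, and its probe has 1 spot. Spc25 lay at -0.70, -0.59, -0.25 and -0.70 (-0.56 ± 0.21). Mad2l1, the checkpoint protein MAD2 that holds back Cdc20, lay at -0.24, -0.60, 0.04 and -0.09 (-0.23 ± 0.28), lowest on replicate 2.

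Subunits of the chromosomal passenger complex, which corrects attachments under Aurkb, varied little. Incenp, the scaffold, lay at 1.22, 1.44, 1.46 and 1.35 (1.37 ± 0.11). Birc5, survivin, lay at 2.62, 2.72, 2.65 and 2.70 (2.67 ± 0.05). Cdca8, borealin, lay at -1.40 ± 0.13, and replicate 1 was the lowest array in all 3 of these genes.

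Among spindle assembly and bundling factors, Tpx2, which activates Aurka on the spindle, lay at -1.84, -1.94, -1.98 and -1.98 (-1.94 ± 0.07). Nusap1, a microtubule-bundling protein, lay at 0.19, -0.10, 0.44 and -0.11 (0.11 ± 0.26), highest on replicate 3 and next on replicate 1. Prc1, which crosslinks the central spindle, lay at 0.83 ± 0.12 with a deviation of 0.13 on replicate 3, and its second probe had 0.22 there. For cytokinesis, Racgap1 of the centralspindlin complex lay at 2.43, 2.19, 2.27 and 2.38 (2.32 ± 0.11), and all 3 of its probes, each detected on every array, were below their mean on replicate 3. Ect2, the exchange factor that centralspindlin recruits, lay at -2.52, -2.05, -1.57 and -2.09 (-2.06 ± 0.39), highest on replicate 3 and lowest on replicate 1. Racgap1 thus did not share the high value of Ect2 on replicate 3. The rest of the array order of Racgap1 depended on the probe: its second gave 1.33, 1.56, 1.46 and 1.62, lowest on replicate 1 as Ect2 was.

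The genes of anaphase onset were near level. Cdc20, the activator of the anaphase-promoting complex, lay at -0.01, 0.24, 0.19 and 0.23 (0.16 ± 0.11). Pttg1, securin, lay at 3.23, 3.37, 3.25 and 3.50 (3.34 ± 0.13). Espl1, separase, the protease that securin blocks, lay at 1.96 ± 0.16, and replicate 1 was the lowest of the arrays in all 3 genes. Smc2, the one condensin member detected, lay at -3.71, -3.98, -3.38 and -3.63 (-3.68 ± 0.25).

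**Figure D3:**
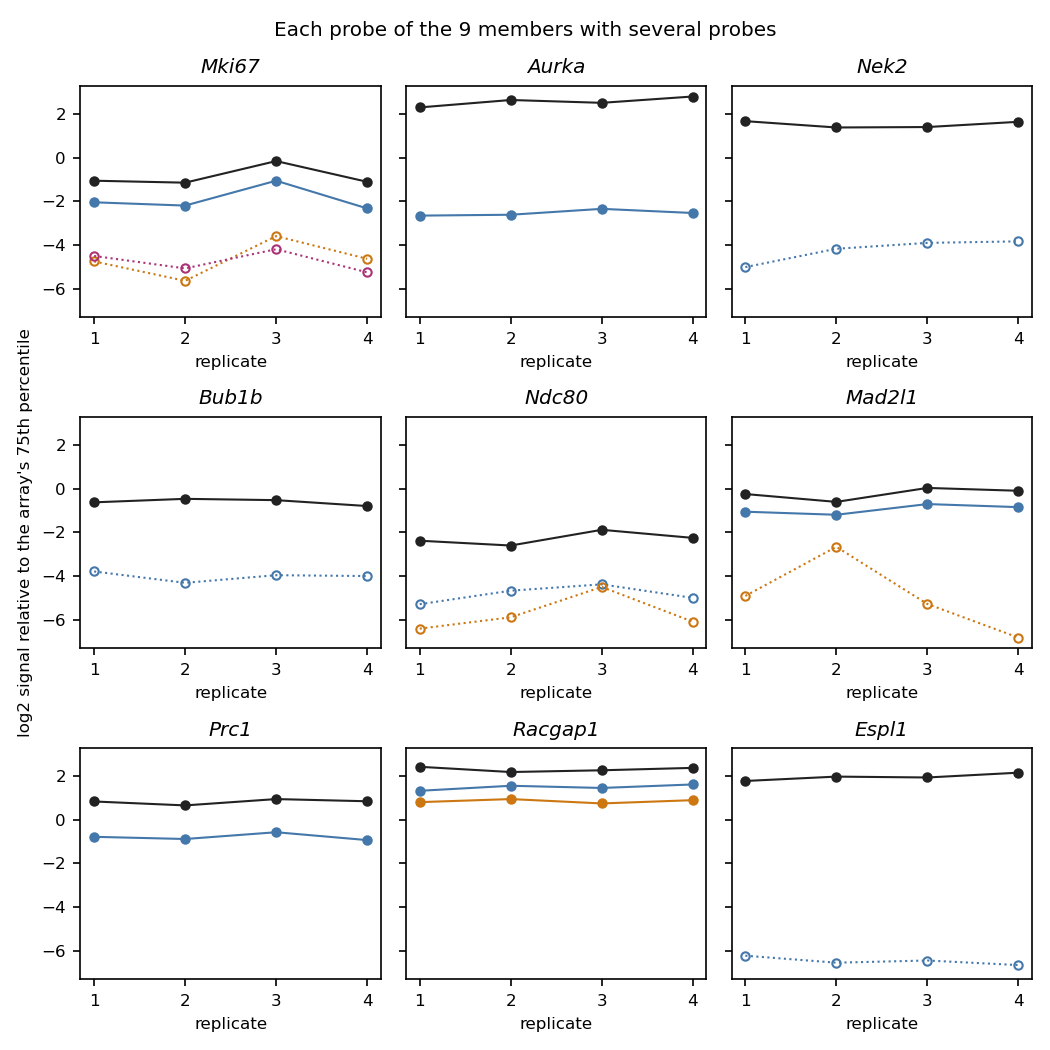
Level of every probe of the 9 members with several probes, by replicate, as log2 signal relative to the array's 75th percentile; each colour is 1 probe, with filled symbols and full lines where it was detected on all 4 arrays and open symbols with dotted lines where it was not. Both Mki67 probes detected on all 4 arrays peak on replicate 3, the 3 probes of Racgap1 do not, and 1 probe of Mad2l1, detected on replicate 2 alone, goes its own way.

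Members with several probes could be checked within the gene. The second probes of Mad2l1 and Prc1 were highest on replicate 3 like the first. The third probe of Mad2l1 gave -4.91, -2.66, -5.28 and -6.82, and was detected on replicate 2 alone, unlike the others. The second Aurka probe was highest on replicate 3 (deviation 0.19), where the first was highest on replicate 4, so the array order of Aurka depended on the probe. The probes of Nek2 differed too, with deviations on replicate 3 of -0.12 for the first and 0.33 for the second, which was detected on 3 arrays. In all, 34 of the 44 probes of the members were detected on every array, 7 on some and 3 on none.

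No member passed the test for varying more between the arrays than genes of like level. With limma's prior variance, 0 of 28 members had an adjusted p under 0.05, where 39 of 7570 genes (0.515%) did. An unadjusted p under 0.05 was found for 6 of 28 (21.4%), against 505 of 7570 (6.67%) of all genes. This count depended on the processing: it was 2 of 28 with normexp, 2 of 28 with cyclic loess and 3 of 28 with quantile normalization. The share of all genes was not counted in those settings. The 6 were Mki67, Nuf2, Kif11, Ttk, Bub1 and Ect2, with adjusted p in limma of 0.14, 0.341, 0.462, 0.585, 0.638 and 0.685 in that order. Replicate 3 was the highest array in each of the 6, and without it 0 of 28 passed at an unadjusted 0.05. The share of all genes that passed without it was not counted. As the 6 were found by a spread that includes this array, their loss is in part built in. Mki67 passed the adjusted threshold without replicate 1 (limma, adjusted p = 0.0185) and on the 5 of its spots beyond column 72 of the array (adjusted p = 0.0486). It passed in no other setting. Its adjusted p in limma was 0.366 with quantile normalization, 0.674 with cyclic loess and 0.791 when scaled to the 75th percentile of detected probes. The median SD over the 28 members was 0.156, against 0.163 over all genes, and the median ratio of a member's SD to the prior SD at its level was 0.93, against 0.89.

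**Figure D4:**
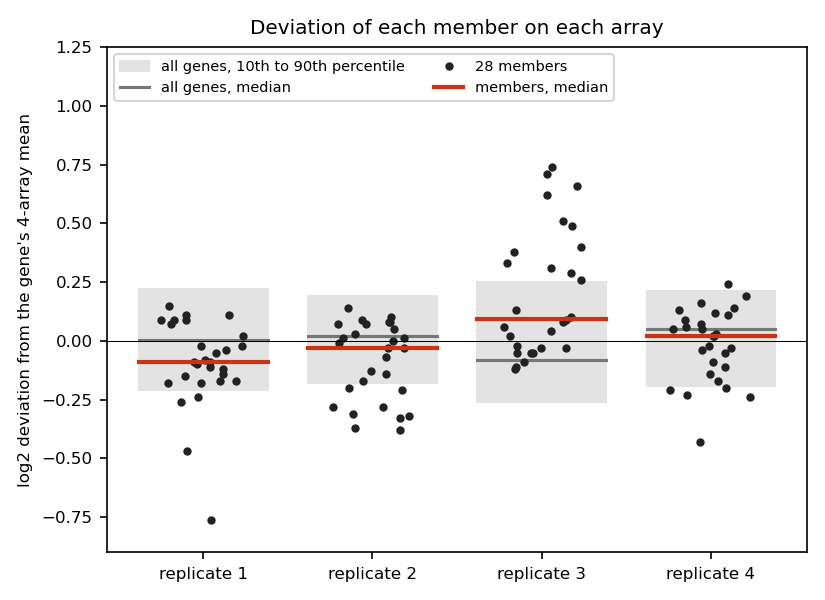
Log2 deviation of each of the 28 detected members (black points, spread sideways for legibility) from its own mean of the 4 arrays, by replicate; red lines are the members' medians, grey lines the medians of all 7570 genes and grey boxes their 10th to 90th percentiles. On replicate 3 the members' median is 0.10 while that of all genes is -0.08, and 12 members are over 0.25.

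The deviations of the members leaned towards one array. On replicate 3, 15 of 28 members had their highest value (53.6%), against 19% of all genes, and 19 were above their own mean (67.9%), against 34.8%. The members' median deviation was 0.10 there, 0.17 above that of all genes. On replicates 1, 2 and 4 it was -0.09, -0.03 and 0.02, and beside all genes -0.09, -0.05 and -0.02. Replicate 2 was the lowest array in 10 members (35.7%, against 17.8% of all genes), and replicate 1 in another 10 (35.7%, against 20.7%). With bulk RNA and 1 array per culture, a difference of the array, a larger share of cells in mitosis and more RNA per mitotic cell cannot be told apart.

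Not all members took part. A deviation over 0.25 there was found for 12 of 28 (42.9%), against 9.96% of all genes, and one over 0.5 for 5 of 28 (17.9%), against 1.82%. The 12 were Mki67, Bub1, Ttk, Kif11, Kif23, Ndc80, Nuf2, Spc25, Mad2l1, Nusap1, Ect2 and Smc2. The nearest member inside this limit was Mad2l1 at 0.26 and the nearest outside was Prc1 at 0.13, with none between them. The other 16 lay between -0.12 (Nek2) and 0.13, among them Aurka, Plk1, Kif20a, Birc5, Racgap1, Pttg1 and Espl1. The shares of all genes given here are not matched for level, and dim genes spread more. On replicate 3 the 90th percentile of all genes was 0.39 at levels under -3, 0.41 from -3 to -2 and 0.02 over 2. Smc2 (0.29, under -3) and Ndc80 (0.40, from -3 to -2) were thus below the 90th percentile of genes of like level. Of the 12, 11 stayed above their mean on replicate 3 in every setting that kept them and this array, and Smc2 fell to -0.04 with a normexp background correction, which left 6 of the 12 over 0.25. As the 12 were picked by their value on this same array, this shows only how far the processing moved them. Of the promoter words described above, a CHR stood in 10 of the 12 (83.3%) and in 8 of the other 12 detected members with a promoter (66.7%), and a CCAAT in 8 (66.7%) and 9 (75%).

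**Figure D5:**
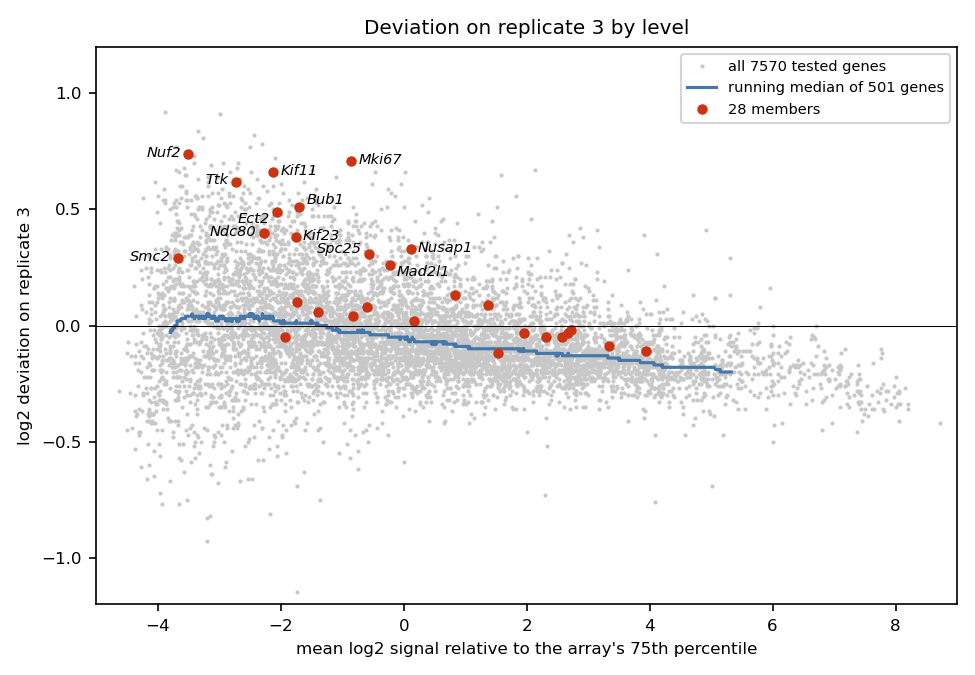
Log2 deviation on replicate 3 from a gene's mean of the 4 arrays, against its mean level (log2 signal relative to the array's 75th percentile), for all genes tested (grey), their running median (blue) and the 28 detected members (red, named where over 0.25). The named members have mean levels from -3.68 to 0.11, and members above a level of 2 lie between -0.11 and -0.02.

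The deviation on replicate 3 went with the brightness of the probe, in the members and in all genes. Among 6 members with a mean level over 2, the median deviation was -0.05, against -0.15 for all 1868 genes at that level. Among 6 members from 0 to 2 it was 0.06, against -0.09. It was 0.26 for 5 members from -1 to 0 and 0.10 for 5 from -2 to -1, where all genes had -0.04 and 0.00. The 4 members from -3 to -2, Ndc80, Kif11, Ttk and Ect2, had 0.55, against 0.03, and the 2 under -3, Nuf2 and Smc2, had 0.52, against 0.00. The members' median was thus above that of genes of like brightness in each of the 6 ranges, without an even trend from bright to dim. The part of this array's brightness in the result was not tested. After cyclic loess, a normalization that evens out trends with level, the members' median on replicate 3 was 0.14 above that of all genes.

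Genes that work beside the members were counted from 7 lists of their own, in which limma called none. An unadjusted p under 0.05 in limma was found for 4 of 20 other centromere genes, 3 of 15 other spindle genes, 1 of 15 of the anaphase-promoting complex, 2 of 12 of condensin II and cohesin, 0 of 11 entry regulators, 1 of 10 transcription factors and 1 of 32 replication genes, where all genes had 6.67%. For these lists the shares over all genes are 45.7% detected on each array and 19% highest on replicate 3, with a median deviation of -0.08 there. Of 28 measured other genes of the centromere and kinetochore, 20 were detected on each array, and 6 of these 20 were highest on replicate 3 (30%, with a median deviation of 0.01). Cenpa, the centromeric histone, lay at -1.28, -0.78, -0.90 and -0.90 (-0.97 ± 0.22), and Cenpc, which binds it, was not well above background. Ska1, of a complex that keeps kinetochores on shrinking microtubules, lay at -3.0, -1.84, -1.68 and -1.61, low on replicate 1 alone (limma, adjusted p = 0.0627). Of 19 measured other spindle genes 15 were detected, 7 of them highest on replicate 3 (46.7%). Kif15, a kinesin that backs up Kif11, lay at -4.13, -3.79, -3.24 and -3.59, and Cep55, a scaffold of the last cut between daughter cells, at -2.26, -3.16, -1.76 and -2.36, both highest on replicate 3. Kif18a, a kinesin that dampens chromosome movement, was not well above background.

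Of 17 measured genes of the anaphase-promoting complex, 15 were detected and 1 of these was highest on replicate 3 (6.67%, against 19% of all genes). The median deviation of this list there was -0.06, against -0.08. The gene highest there was Anapc4, at 0.13, -0.39, 0.33 and -0.36, while its fellow subunits Anapc1 and Anapc2 lay at -1.99 ± 0.16 and 2.16 ± 0.18. Of 12 measured regulators of mitotic entry 11 were detected and 4 were highest on replicate 3 (36.4%). Cdk1, the kinase that starts mitosis, lay at 3.86, 4.07, 4.09 and 4.11, its cyclin Ccnb1 at 0.95, 1.06, 1.06 and 0.96, and Wee1, which restrains Cdk1, at -1.44, -1.65, -0.93 and -1.59. Wee1 was the one of these that stood high on replicate 3, by 0.47.

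Of 14 measured genes of condensin II and cohesin, 12 were detected and 6 of these were highest on replicate 3 (50%, against 19% of all genes). The median deviation of this list on replicate 3 was 0.21, against -0.08. Pds5b, which tunes how long cohesin stays on chromosomes, lay at -3.51, -4.14, -2.72 and -3.32, and Ncapg2, a condensin II subunit, at 0.31, 0.44, 0.86 and 0.42, both highest there. Ncapd3, another subunit, lay at -0.75, 0.04, 0.04 and 0.06, low on replicate 1 alone. Of the transcription factors of mitotic genes, 10 of 13 were detected and 2 of 10 were highest on replicate 3 (20%). Foxm1 and Mybl2, activators of late cell cycle genes, lay at 1.88 ± 0.08 and 1.48 ± 0.12, and Lin54, the CHR-binding subunit named above, at -1.71, -1.90, -0.88 and -1.25, highest on replicate 3.

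DNA replication genes, which act earlier in the cell cycle, were detected in 32 of 33 cases, and 12 of 32 were highest on replicate 3 (37.5%, against 19% of all genes). Their median deviation there was 0.00, against -0.08. Of these, the helicase subunits Mcm2 and Mcm3 lay at 4.94 ± 0.23 and 3.53 ± 0.17, with deviations of -0.25 and -0.14 on replicate 3. Gins4, of the replicative helicase complex, lay at -0.36, 0.44, 0.47 and 0.31, low on replicate 1. Whether these lists differ from the members in their share on replicate 3 was not tested, since 1 array has no replicate.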

How the data were processed

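RNA of 4 cultures of 1 group was measured on 4 one-colour Agilent arrays, and groups and replicate numbers came from sample titles. Per the file headers, the authors deposited intensity values as processed signals of single spots, with background subtracted and no scaling across arrays. Agilent Feature Extraction 11.0.1.1 made them, per the submitters' processing notes. Each array has 62976 spots, 58717 of them not controls, and 634 to 669 flagged as non-uniform or outlying were left out.

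Signals were divided by the array's 75th percentile, turned into log2 and averaged over a probe's spots. Accessions without versions named 21109 of 45598 probes through RefSeq gene records (GRCr8). The brightest probe stood for its gene. For 7570 genes with a probe detected on all arrays, the variance over 4 arrays (3 degrees of freedom) was set against limma's trended, robust prior (24.3 degrees of freedom, upper F tail, Benjamini-Hochberg adjustment, threshold 0.05; limma 3.58.1, R 4.3.3, data.table version 1.17.8). Precision is limited by the number of arrays.

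Members and lists were chosen with earlier results of these data known. Values on every array were given for the 3 members with the largest SD, for the first 2 of each role, for members with 1 array apart by Dixon's ratio, and for others on which a result turned. Of each other list, the first 2 measured genes and the one with the largest SD were named. Alternatives tried were normexp (offset 50) on median spot signals as background correction, other normalizations and scalings, probe rules, flags, filters, forms of the prior, spots beyond column 72, and leaving out each replicate. The limit of 0.25, the counts on replicate 3 and cyclic loess were chosen after seeing the data.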

Additional observations from a re-analysis of the deposited data

Results flagged for a closer look

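In 4 genes of the 47 checked, 1 of them among the 28 detected members, a single array stood apart from the rest. The measure was Dixon's ratio, the gap between the extreme array and its neighbour divided by the whole range, read against its critical value for 4 samples. Chance alone puts about 5% of genes past it. Of all tested genes 413 of 7570 (5.46%) were past it, and of the members 1 of 28 (3.57%). The other genes checked included the one with the largest SD of each list, so 4 of 47 cannot be set against these shares. Mki67 had a ratio of 0.905, with replicate 3 high at -0.15 against -1.14 to -1.05. The other three were low on replicate 1, and none of them is a member. Ncapd3 had 0.974, at -0.75 against 0.04 to 0.06. Ska1 had 0.835, at -3.0 against -1.84 to -1.61. Cdk1 had 0.833, at 3.86 against 4.07 to 4.11, a 1.19-fold range.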

How the results depend on the processing

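The count of detected members stayed at 28 of 30 without each replicate. It was 30 of 30 with the lenient flag and 19 of the 20 members with a spot beyond column 72. Normalization could not change this count, as detection rests on the flags of the spots alone. The members' median deviation on replicate 3 was 0.14 to 0.29 above all genes in each setting that kept this array. Scaling each array by another constant could not change this difference, as the constant cancels. Without replicate 3 the deviations of the others were 0.00 to 0.04. The count of members highest on replicate 3 ran from 10 of 19 (beyond column 72) to 21 of 28, the latter when scaled to the 75th percentile of detected probes, where 31.1% of all genes were highest there. The count over 0.25 was 6 with normexp, where 3.16% of all genes passed, 7 of 19 beyond column 72 (11.4%), and 10 to 12 without each other replicate. The members' median SD was 0.188 with the 75th percentile of detected probes (all genes 0.151), 0.181 with the lenient flag (0.184) and with no filter (0.274), 0.222 beyond column 72 (0.177), and 0.145 to 0.164 without each replicate (0.136 to 0.172). The count of members called by limma was 1 beyond column 72 (9 of 4964 genes), 0 to 1 without each replicate (10 to 77 genes, and 32 of 7644 without replicate 1, where the 1 was found) and 0 otherwise (0 to 206 genes, the most with normexp), with 0 to 6 at an unadjusted p under 0.05. Fewer spots were used beyond column 72, and fewer arrays where a replicate was left out. What moved the values in any of the settings was not tested. No paired analysis was possible because the arrays form 1 group. Naming probes by a gene name column was not run, as the accession alone was used. Dim probes limit what 4 arrays can show: the median SD of all genes was 0.258 at levels under -3 and 0.151 over 2.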
